A study of Mus musculus with 12 samples.

Results

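Expression of the 10 genes that make, break down, dephosphorylate and export sphingosine-1-phosphate (S1P) was described across 12 primary mammary tumours of mice. The genes were taken by name for their role, with no threshold on measured values: the sphingosine kinases Sphk1 and Sphk2, the S1P lyase Sgpl1, the S1P phosphatases Sgpp1 and Sgpp2, the exporters Spns2 and Mfsd2b, and the lipid phosphate phosphatases Plpp1, Plpp2 and Plpp3. All 10 are among the 56860 genes of the count table, and all 10 are among the 30660 that passed the filter on low counts and were tested. Every tumour arose from the MMTV-PyMT transgene, in which the mouse mammary tumour virus promoter drives the polyoma middle T oncogene mainly in mammary epithelium. Tumours were collected at an age of 4.5 months, and each genotype has 4 libraries. The group called WT carried MMTV-Cre and MMTV-PyMT according to the design text, although its strain label names MMTV-PyMT alone. C3_KO carried MMTV-Cre, MMTV-PyMT and the allele named C3Tdt, at the gene of complement component C3. S1pr1_KO carried MMTV-Cre, MMTV-PyMT and floxed S1pr1 (S1pr1fl/fl), the gene of an S1P receptor. Cre driven by this promoter acts mainly in epithelium, and the endothelial, immune and stromal cells within the tumours may retain an intact gene. Separate mice for the 4 tumours of each group are not stated in the labels, and p-values here measure the spread between these samples.

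S1P is a signalling lipid made inside cells when a sphingosine kinase phosphorylates sphingosine, which ceramidases release from ceramide. It leaves cells through a transporter and acts on G protein-coupled receptors, S1PR1 among them, which guide lymphocyte exit from lymphoid organs and hold endothelial barriers together. S1P lyase cleaves it irreversibly, while S1P phosphatases inside the cell and lipid phosphate phosphatases at the cell surface return it to sphingosine.

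Library totals, in units of 1e6 counts, were 327.1 to 484.0 for WT, 237.1 to 424.6 for C3_KO and 230.4 to 380.3 for S1pr1_KO. Neither targeted gene separated its knockout from WT. In S1pr1_KO against WT, S1pr1 had a log2 fold change of -0.17 (SE 0.43, edgeR adjusted p = 0.874). In C3_KO against WT, C3 had -0.76 (SE 0.49, edgeR adjusted p = 0.765). C3 had 1.44 (SE 0.50) in S1pr1_KO against C3_KO, which edgeR did not call. Levels of S1pr1 were 2.88 to 8.02 CPM among WT and 2.59 to 7.43 CPM among S1pr1_KO libraries, CPM being counts per 1e6 after scaling of the libraries. Those of C3 were 43.3 to 182 CPM among WT, 41.6 to 75.1 CPM among C3_KO and 43.4 to 273 CPM among S1pr1_KO libraries. Genotypes are therefore given as labelled. Luminal epithelial markers summed to between 3187 and 8841 CPM, and none of these 12 genes was at 0 throughout any genotype. C3_KO replicate 3 and S1pr1_KO replicates 1 and 4 stood apart in the genes of secretory glands. Milk protein genes summed to 95575 CPM in C3_KO replicate 3, against 1288.9 to 5951 CPM in the other libraries. Salivary gland markers summed to 154114 and 9778 CPM in S1pr1_KO replicates 1 and 4, against at most 268 CPM elsewhere. Further libraries were unlike the rest in other markers. Skin keratinocyte markers summed to 1440 CPM in C3_KO replicate 3 and 862 CPM in S1pr1_KO replicate 3, against 110 to 423 CPM elsewhere. Skeletal muscle markers summed to 3280 CPM in WT replicate 2, 1735 CPM in C3_KO replicate 2 and 1930 CPM in S1pr1_KO replicate 1. Elsewhere they reached at most 474 CPM.

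Promoter sequence is shown for Sphk1, the only one of the 10 genes with an unadjusted p under 0.05 in the edgeR fit to all 12 libraries, and for Plpp2 and Plpp3, phosphatases of one family whose fold changes in S1pr1_KO had opposite signs. RefSeq windows on the build GRCm38.p6, from 250 bases before to 50 after an annotated start, were found for 9 of the 10 genes by symbol, with 14 windows in all. Plpp1 had none. Sphk1 has 5 windows and Sphk2 has 2, and the counts are sums over a gene, so they do not tell which start was used. Both strands were searched for the E-box CACGTG, for the TATA element TATAAA, for the CCAAT box (CCAAT) and for the GC box GGGCGG, and no match overlaps another in the windows printed. Capitals mark the matches, in the orientation in which they stand.
Sphk1, most upstream start, chr11:116530850-116531149, plus strand: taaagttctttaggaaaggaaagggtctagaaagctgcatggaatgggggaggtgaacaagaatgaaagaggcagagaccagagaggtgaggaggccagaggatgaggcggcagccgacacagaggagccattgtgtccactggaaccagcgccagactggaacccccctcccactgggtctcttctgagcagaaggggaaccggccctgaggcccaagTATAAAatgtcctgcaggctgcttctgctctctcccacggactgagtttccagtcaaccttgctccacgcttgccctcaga
Sphk1, downstream start, chr11:116532194-116532493, plus strand: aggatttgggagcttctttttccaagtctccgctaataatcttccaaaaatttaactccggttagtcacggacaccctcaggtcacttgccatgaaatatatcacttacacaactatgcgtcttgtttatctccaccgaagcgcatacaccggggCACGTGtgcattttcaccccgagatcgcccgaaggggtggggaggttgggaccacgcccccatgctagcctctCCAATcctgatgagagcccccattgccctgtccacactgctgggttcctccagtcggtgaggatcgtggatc
Plpp2, chr10:79533738-79534037, minus strand: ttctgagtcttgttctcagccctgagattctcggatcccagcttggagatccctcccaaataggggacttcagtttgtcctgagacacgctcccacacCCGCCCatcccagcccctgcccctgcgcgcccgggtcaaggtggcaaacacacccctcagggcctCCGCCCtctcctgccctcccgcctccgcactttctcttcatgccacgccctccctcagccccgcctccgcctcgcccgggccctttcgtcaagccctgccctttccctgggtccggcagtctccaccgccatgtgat
Plpp3, chr4:105157097-105157396, plus strand: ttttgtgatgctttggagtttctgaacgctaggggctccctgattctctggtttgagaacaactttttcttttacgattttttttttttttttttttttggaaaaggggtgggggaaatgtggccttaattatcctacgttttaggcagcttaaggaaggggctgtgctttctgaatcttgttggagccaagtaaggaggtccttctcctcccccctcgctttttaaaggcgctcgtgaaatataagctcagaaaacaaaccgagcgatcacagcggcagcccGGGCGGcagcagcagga
The most upstream Sphk1 window holds 1 TATAAA and 6 CpG dinucleotides, whereas the downstream window printed holds 1 CACGTG, 1 CCAAT and 14 CpG. Of the Sphk1 windows not printed, those from 116531587 and 116531661, between the 2 printed, hold 21 CpG each and no match. The one from 116532201, the most downstream, holds 1 CACGTG, 1 CCAAT and 15 CpG. Across all 32851 RefSeq windows of this length, 13.6% hold TATAAA, 7.15% CACGTG, 37.4% CCAAT and 35.7% GGGCGG, and the median window has 7 CpG. Plpp2 has 17 CpG, a GC content of 65.3% and 2 GC boxes, both read on the other strand. Plpp3 has 11 CpG, a GC content of 46.0% and 1 GC box. The 2 Sphk2 windows have 27 and 33 CpG, and the Spns2 window has 2. These matches are descriptions of the letters in the windows.

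The 10 genes differed widely in level. Compared per gene length, as FPKM (counts per kilobase of gene and 1e6 counts, from the deposited table), Plpp2 was highest and Spns2 next in 12 of 12 libraries. In WT, Plpp2 was at 116 ± 26.1 FPKM (SD, n = 4) and Spns2 at 42.2 ± 9.74 FPKM. Their ranges did not overlap each other or those of the other 8 genes in WT or in C3_KO. A middle group followed in WT: Sphk2 at 16.4 ± 3.08, Plpp3 at 14.6 ± 1.48, Sgpp1 at 10.2 ± 2.63, Sgpl1 at 9.11 ± 0.50, Sphk1 at 6.34 ± 3.93 and Plpp1 at 6.33 ± 0.84 FPKM (SD, n = 4 each). Each gene of this stretch overlapped the next in range, whereas genes further apart need not: the WT libraries of Sphk2 and Plpp3 all lay above those of Sgpl1 and Plpp1. Mfsd2b at 0.287 ± 0.119 and Sgpp2 at 0.251 ± 0.099 FPKM lay below, and their ranges overlapped. Over 12 libraries the counts of Sgpp2 were 149 to 604 and those of Mfsd2b 283 to 2286, whereas the other 8 genes had at least 2337 counts in every library.

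**Figure D1:**
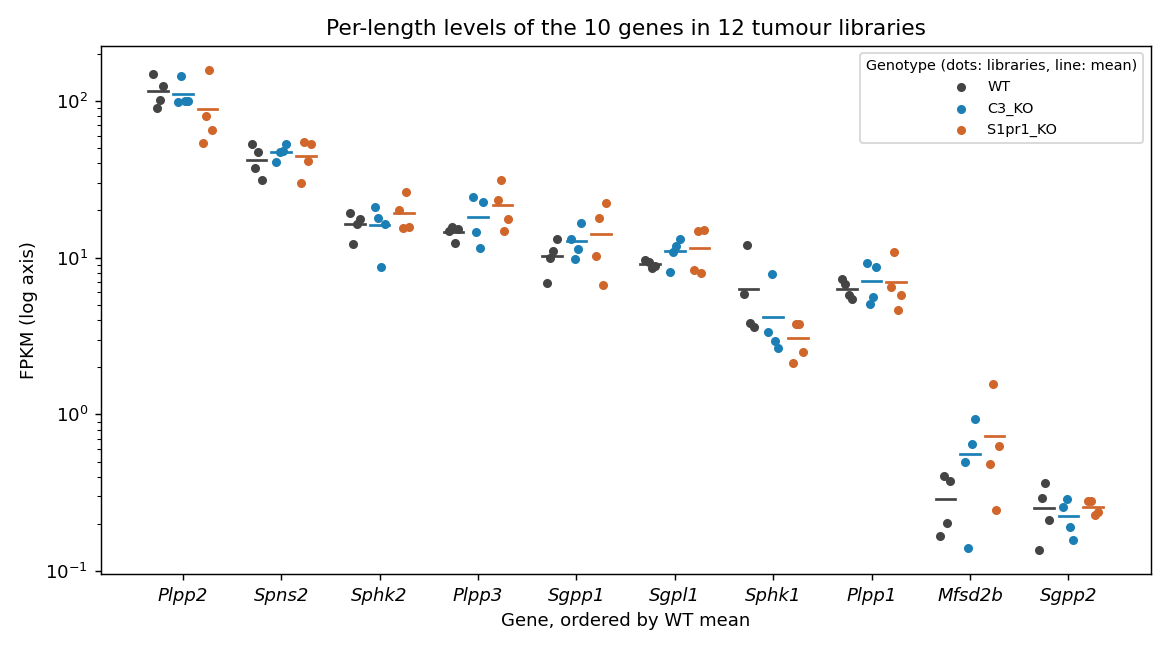
FPKM (log axis) of each of the 10 genes in each of 12 libraries, with 1 point per library coloured by genotype and a line at each genotype's mean. Plpp2 and Spns2 lie at the top in every library, and Mfsd2b and Sgpp2 lie apart at the bottom, below 2 FPKM.

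No gene of the set passed the test in any comparison. With edgeR's quasi-likelihood test and an adjusted p under 0.05, 0 of 10 were called in C3_KO against WT, where 0% of all 30660 genes were called. The count was 0 of 10 in S1pr1_KO against WT (background 0%) and 0 of 10 in S1pr1_KO against C3_KO (background 0%). At an unadjusted p under 0.05, C3_KO against WT had 0 of 10 (background 6.23%), S1pr1_KO against WT had 1 of 10, Sphk1 (background 15.5%), and S1pr1_KO against C3_KO had 0 of 10 (background 3.40%). Groups that did not overlap were found for 0 of 10 genes in each comparison, where the backgrounds are 3.04%, 7.58% and 1.31% in the same order. The median log2 fold change of the 10 genes was 0.02 in each comparison, beside 0.05, 0.03 and -0.03 over all genes tested. DESeq2 called 0 of 10 in C3_KO against WT (background 0.267%), 0 of 10 in S1pr1_KO against WT (3.03%) and 0 of 10 between the knockouts (0.346%). With limma-voom and library quality weights, the counts were 0 of 10 (0.0163%), 2 of 10 (25.5%) and 0 of 10 (0%). The comparisons share libraries, so their values are not independent of each other. The 95% confidence interval stayed within a doubling or halving for 6 of the 10 genes in C3_KO against WT, for 7 in S1pr1_KO against WT and for 6 in S1pr1_KO against C3_KO. In simulated counts with the same depths and spread, edgeR called 3% of genes changed by a factor of 2 in S1pr1_KO against WT. It called 63% of those changed by a factor of 4, so changes of the smaller size were seldom detected there. In the same order, the shares were 2% and 52% in C3_KO against WT and 4% and 48% in S1pr1_KO against C3_KO. The changed genes were drawn at random from tested genes with enough counts, and counts were drawn for each gene independently. These shares describe genes at large and were not worked out for the 10 genes.

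**Figure D2:**
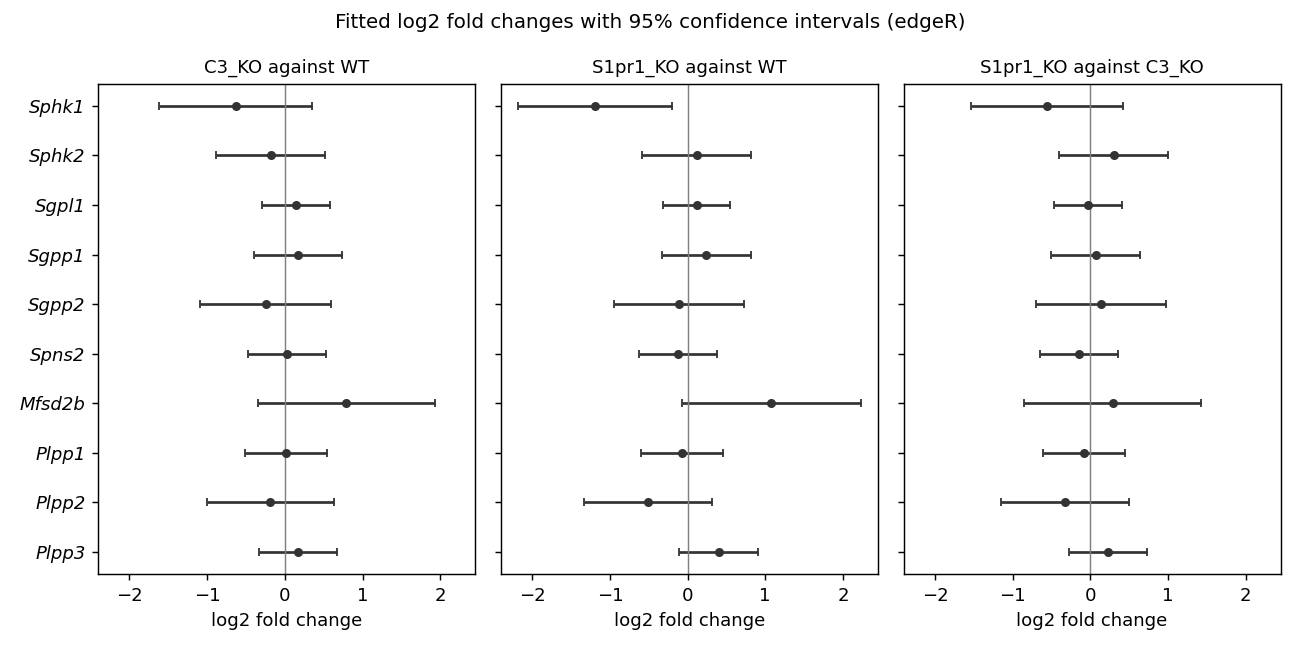
Log2 fold change (x axis) of the 10 genes in each of the 3 comparisons, as points with 95% confidence intervals worked out from the edgeR test statistic. Every interval except that of Sphk1 in S1pr1_KO against WT, which runs from -2.18 to -0.20, includes 0.

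Sphk1 and Sphk2 both phosphorylate sphingosine. Sphk1 is found mainly in the cytosol and at the plasma membrane, and Sphk2 also in the nucleus and mitochondria. Sphk1 was at 32.4, 56.7, 20.1 and 18.1 CPM in WT replicates 1 to 4, at 15.1, 41.5, 15.3 and 10.2 CPM in C3_KO and at 11.5, 13.9, 20.1 and 10.2 CPM in S1pr1_KO. WT replicate 2 and C3_KO replicate 2 were high, and the genotypes overlapped. Skeletal muscle markers summed to 9.90, 3280, 48.3 and 41.2 CPM in WT replicates 1 to 4, and to 8.76, 1735, 146 and 474 CPM in C3_KO. In S1pr1_KO they summed to 1930, 7.97, 3.13 and 59.3 CPM, highest in replicate 1, where Sphk1 was at 11.5 CPM. The median r of Sphk1 was 0.28 with these markers and 0.48 with luminal epithelial markers, where the median over all genes was -0.02. Muscle did not stand out among the lists: the value was 0.29 with red blood cell markers. It was -0.43 with salivary gland markers, -0.40 with B and plasma cell markers and -0.33 with T cell markers. The part of any of these cells in the Sphk1 values was not tested. In S1pr1_KO against WT the log2 fold change of Sphk1 was -1.19 (SE 0.46, 2.29-fold lower, edgeR adjusted p = 0.267), with S1pr1_KO above WT in 2 of 16 pairs of libraries. Without WT replicate 2 it was -0.76 (edgeR adjusted p = 0.376), and over all alternatives the adjusted p ran from 0.063 to 0.794. In C3_KO against WT the log2 fold change of Sphk1 was -0.63 (SE 0.45, edgeR adjusted p = 0.766). It was -1.24 without C3_KO replicate 2 and -0.20 without WT replicate 2. Between the knockouts it was -0.56 (SE 0.45, edgeR adjusted p = 1.00), and 0.04 without C3_KO replicate 2.

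Sphk2, the other kinase, had fold changes of both signs. Its levels were 92.7, 50.0, 74.6 and 77.5 CPM in WT, 81.8, 82.8, 39.6 and 55.6 CPM in C3_KO and 94.1, 49.0, 121 and 55.9 CPM in S1pr1_KO. The log2 fold change was -0.18 (SE 0.33) in C3_KO against WT, 0.12 (SE 0.33) in S1pr1_KO against WT and 0.30 (SE 0.33) between the knockouts, with edgeR adjusted p of 0.896, 0.882 and 1.00. The exons of Sphk2 overlap those of Dbp, a clock-controlled transcription factor gene, over 13.0% of their length and those of the ribosomal protein gene Rpl18 over 8.97%, both on the opposite strand in GENCODE vM21. How the counting treated strand is not given in the sources used here, so part of the Sphk2 count could be reads of these neighbours. Dbp was at 3.95 to 105 CPM and Rpl18 at 365 to 1470 CPM. Over the 12 libraries, log2 CPM of Sphk2 had a Pearson r of 0.72 with Dbp and 0.64 with Rpl18. Sphk1 overlaps the predicted gene Gm29292 over 4.02% of its exon length, and that gene reached at most 1.02 CPM.

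Per gene length Sphk2 exceeded Sphk1 in all 12 libraries, by the narrowest margin in WT replicate 2, where the FPKM ratio was 1.01. This order and the shares below take the Sphk2 counts as deposited, which may include reads of Dbp and Rpl18. Sphk1 made up 23.3, 49.7, 19.0 and 16.9% of the kinase FPKM in WT, with a mean of 27.2% ± 15.2 (SD, n = 4). The share was 20.8% ± 8.33 in C3_KO and 13.9% ± 4.30 in S1pr1_KO (SD, n = 4 each), and the genotypes overlapped.

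**Figure D3:**
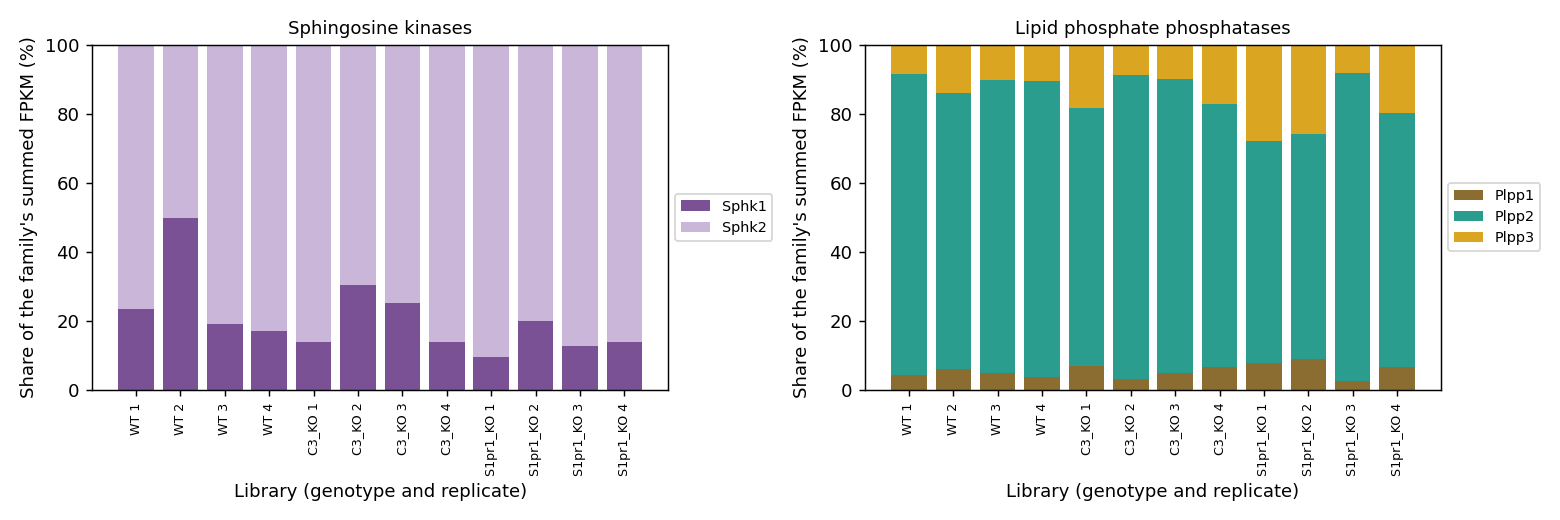
Share (%) of the summed FPKM of the 2 sphingosine kinases (left) and of the 3 lipid phosphate phosphatases (right) held by each gene, as 1 stacked bar per library. Sphk1 reaches 49.7% in WT replicate 2, and Plpp2 is below 75% only in C3_KO replicate 1 and S1pr1_KO replicates 1, 2 and 4.

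The lyase Sgpl1, which removes S1P from the sphingolipid pool, varied little. It was at 68.3, 57.2, 57.8 and 56.9 CPM in WT, 46.5, 73.9, 79.3 and 65.4 CPM in C3_KO and 57.6, 69.8, 54.1 and 78.6 CPM in S1pr1_KO. Its highest library exceeded its lowest by 1.70-fold, the narrowest range among the 10 genes. The log2 fold change was 0.14 (95% confidence interval -0.29 to 0.58) in C3_KO against WT, 0.12 (-0.32 to 0.55) in S1pr1_KO against WT and -0.03 (-0.46 to 0.41) between the knockouts. These intervals are narrower than a doubling or halving.

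Of the S1P phosphatases, which sit in the endoplasmic reticulum, Sgpp1 held 97.6% ± 0.753 of the pair's FPKM in WT, 98.2% ± 0.802 in C3_KO and 97.8% ± 1.03 in S1pr1_KO (SD, n = 4 each). Sgpp1 was at 44.6, 55.5, 68.0 and 78.3 CPM in WT, 69.4, 61.7, 69.6 and 76.4 CPM in C3_KO and 65.3, 77.2, 41.8 and 107 CPM in S1pr1_KO. S1pr1_KO held both the lowest and the highest library. The log2 fold change of Sgpp1 was 0.24 (SE 0.27, edgeR adjusted p = 0.679) in S1pr1_KO against WT and 0.17 (SE 0.27, edgeR adjusted p = 0.882) in C3_KO against WT. Exons of Farsb on the opposite strand overlap 6.20% of the Sgpp2 exon length, and Farsb was at 44.6 to 91.8 CPM. Part of the low Sgpp2 count could therefore be reads of this neighbour, which was not tested, and the pair had an r of 0.06. Sgpp2 lay at 0.511 to 1.60 CPM over the 12 libraries, and WT held its highest library. Its log2 fold changes were -0.25 (SE 0.39) in C3_KO against WT, -0.11 (SE 0.39) in S1pr1_KO against WT and 0.14 (SE 0.39) between the knockouts.

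The lipid phosphate phosphatases act on the outer face of the plasma membrane and on several lipid phosphates, lysophosphatidic acid among them. Plpp2 was at 284, 147, 184 and 216 CPM in WT, 153, 265, 178 and 133 CPM in C3_KO and 101, 101, 289 and 92.1 CPM in S1pr1_KO. In S1pr1_KO, 3 of the 4 libraries lay below every WT and C3_KO library, and S1pr1_KO replicate 3 lay above all of them. The log2 fold change of Plpp2 in S1pr1_KO against WT was -0.51 (SE 0.38, 1.42-fold lower, edgeR adjusted p = 0.532), with S1pr1_KO above WT in 4 of 16 pairs. It was -1.03 without S1pr1_KO replicate 3 (edgeR adjusted p = 0.054), and -0.03 (edgeR adjusted p = 0.992) when the 3 libraries with high milk or salivary gene sums were dropped, which leaves S1pr1_KO replicates 2 and 3. With limma-voom and quality weights, which give libraries far from their group less weight, Plpp2 was called lower (log2 fold change -0.96, adjusted p = 0.00996) where 25.5% of all genes were called. In C3_KO against WT the value was -0.19 (SE 0.38, edgeR adjusted p = 0.914).

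The luminal epithelial markers were low in the same 3 S1pr1_KO libraries as Plpp2. They summed to 3187, 3468, 7439 and 3509 CPM in S1pr1_KO replicates 1 to 4, against 4283 to 8841 CPM among WT libraries and 3824 to 7331 CPM among C3_KO libraries. Of these 12 markers, 10 had a lower fitted level in S1pr1_KO than in WT, with a median log2 fold change of -0.37, and 0 of 12 had an unadjusted p under 0.05 (background 15.5%). Over the 12 libraries the median Pearson r between Plpp2 and these markers was 0.74, where the median over all genes was -0.09. Their part in the Plpp2 values was not tested. In bulk tumour RNA, fewer cells of a type and less RNA per cell cannot be told apart.

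Plpp3 leaned the other way in the same comparison. It was at 53.9, 49.2, 42.9 and 50.7 CPM in WT, 72.4, 51.2, 39.5 and 57.8 CPM in C3_KO and 83.8, 76.2, 51.7 and 47.6 CPM in S1pr1_KO. S1pr1_KO replicates 1 and 2 lay above every other library, and replicates 3 and 4 lay within the WT range. The log2 fold change of Plpp3 in S1pr1_KO against WT was 0.40 (SE 0.23, edgeR adjusted p = 0.421), with S1pr1_KO above WT in 12 of 16 pairs. The FPKM ratio of Plpp2 to Plpp3 was 10.1, 5.70, 8.18 and 8.12 in WT, 4.03, 9.90, 8.63 and 4.40 in C3_KO and 2.31, 2.53, 10.7 and 3.70 in S1pr1_KO. In S1pr1_KO, 3 libraries had lower ratios than all WT libraries, and replicate 3 had the highest ratio of all 12.

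Markers of B cells and adipocytes were high in the same pair of S1pr1_KO libraries as Plpp3. B and plasma cell markers, of which none was at 0 throughout a genotype, summed to 206, 98.4, 4.26 and 9.97 CPM in S1pr1_KO replicates 1 to 4, 9.19 to 22.2 CPM among WT libraries and 2.76 to 24.4 CPM among C3_KO libraries. Adipocyte markers summed to 1324, 1100, 55.6 and 122 CPM in S1pr1_KO, 32.9 to 337 CPM among WT libraries and 109 to 333 CPM among C3_KO libraries. In S1pr1_KO against WT, 10 of 10 B and plasma cell markers and 12 of 12 adipocyte markers had a higher fitted level, 8 and 6 of them at an unadjusted p under 0.05 (background 15.5%). Over the 12 libraries the median r of Plpp3 was 0.83 with B and plasma cell markers, 0.79 with T cell markers, 0.68 with adipocyte markers, 0.58 with fibroblast markers, 0.58 with lymphatic endothelial markers and 0.45 with blood endothelial markers. Fibroblast markers summed to 4903, 4939, 2289 and 3789 CPM in S1pr1_KO replicates 1 to 4. They summed to 1807 to 4620 CPM among WT libraries and 2732 to 4747 CPM among C3_KO libraries. In S1pr1_KO, 12 of 12 had a higher fitted level than in WT (median log2 fold change 0.90), 4 of them at an unadjusted p under 0.05 (background 15.5%). The part of these cells in the Plpp3 values was not tested.

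Plpp1 was at 10.1 to 14.6 CPM in WT, 9.80 to 15.1 CPM in C3_KO and 8.68 to 14.6 CPM in S1pr1_KO. Its log2 fold changes were 0.01 (SE 0.24), -0.08 (SE 0.24) and -0.09 (SE 0.24) in C3_KO against WT, S1pr1_KO against WT and between the knockouts. Exons of Mtrex on the opposite strand overlap 25.8% of its exon length, with an r of 0.12 between the pair over the libraries.

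**Figure D4:**
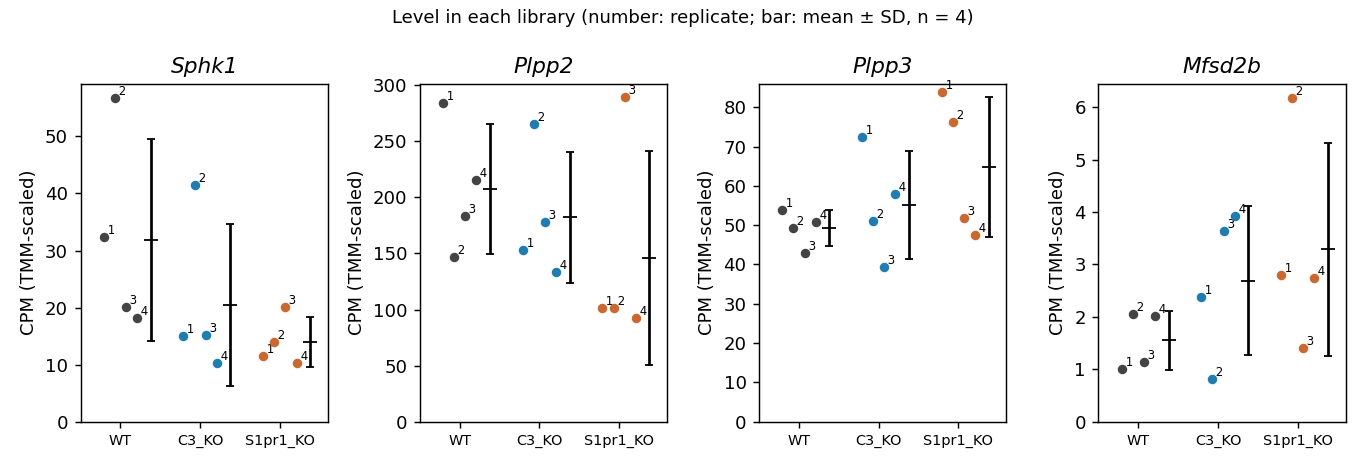
Levels in CPM (linear axes) of Sphk1, Plpp2, Plpp3 and Mfsd2b, the genes with the 4 largest absolute log2 fold changes in S1pr1_KO against WT, with 1 numbered point per library and a bar for the mean ± SD of each genotype (n = 4). Plpp2 in S1pr1_KO shows 3 libraries between 92.1 and 101 CPM and 1 at 289 CPM.

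Spns2 and Mfsd2b export S1P, Spns2 chiefly from endothelial cells into lymph and blood and Mfsd2b from red blood cells and platelets. Spns2 was at 249, 150, 212 and 135 CPM in WT, 155, 214, 212 and 176 CPM in C3_KO and 139, 172, 188 and 185 CPM in S1pr1_KO. WT held both its lowest and its highest library. Its log2 fold changes were 0.02 (95% confidence interval -0.48 to 0.52) in C3_KO against WT, -0.13 (-0.63 to 0.38) in S1pr1_KO against WT and -0.15 (-0.65 to 0.35) between the knockouts. The blood endothelial markers summed to 194 to 352 CPM in WT, 306 to 427 CPM in C3_KO and 299 to 542 CPM in S1pr1_KO. The median r of Spns2 over the libraries was -0.01 with these markers, -0.58 with lymphatic endothelial markers, -0.74 with T cell markers and 0.54 with luminal epithelial markers. Its exons overlap those of Mybbp1a on the opposite strand over 3.21% of their length, and the pair had an r of 0.65.

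Mfsd2b varied most of the 10 genes, by 7.64-fold between its highest and lowest library. It was at 0.997, 2.06, 1.14 and 2.02 CPM in WT, 2.38, 0.809, 3.65 and 3.93 CPM in C3_KO and 2.80, 6.18, 1.41 and 2.75 CPM in S1pr1_KO. S1pr1_KO replicate 2 was the highest library and C3_KO replicate 2 the lowest. In S1pr1_KO against WT the log2 fold change of Mfsd2b was 1.08 (SE 0.53, 2.11-fold higher, edgeR adjusted p = 0.349), with S1pr1_KO above WT in 14 of 16 pairs. Without single libraries it ran from 0.58 to 1.38, and with limma-voom and quality weights it was called higher (1.29, adjusted p = 0.0414; background 25.5%). In C3_KO against WT it was 0.79 (SE 0.53, edgeR adjusted p = 0.765).

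Markers of red blood cells, in which Mfsd2b is best known, gave a mixed picture beside it. Red blood cell markers summed to 128 to 749 CPM in WT, 92.3 to 1452 CPM in C3_KO and 68.2 to 454 CPM in S1pr1_KO, and the median r of Mfsd2b with them was -0.17 over the libraries. Of the 9 tested, 8 had a higher fitted level in C3_KO than in WT (median log2 fold change 0.78), and 8 a lower one in S1pr1_KO than in WT (-0.48). With platelet and megakaryocyte markers the median r was 0.08. It was 0.48 with adipocyte markers, 0.48 with B and plasma cell markers, 0.44 with fibroblast markers and -0.57 with luminal epithelial markers. Mfsd2b and Plpp2 had the lowest r of the 45 pairs among the 10 genes, -0.77, and Plpp1 and Plpp3 the highest, 0.64. The median over the pairs was -0.09, and 18 of the 45 pairs had an r above 0.

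**Figure D5:**
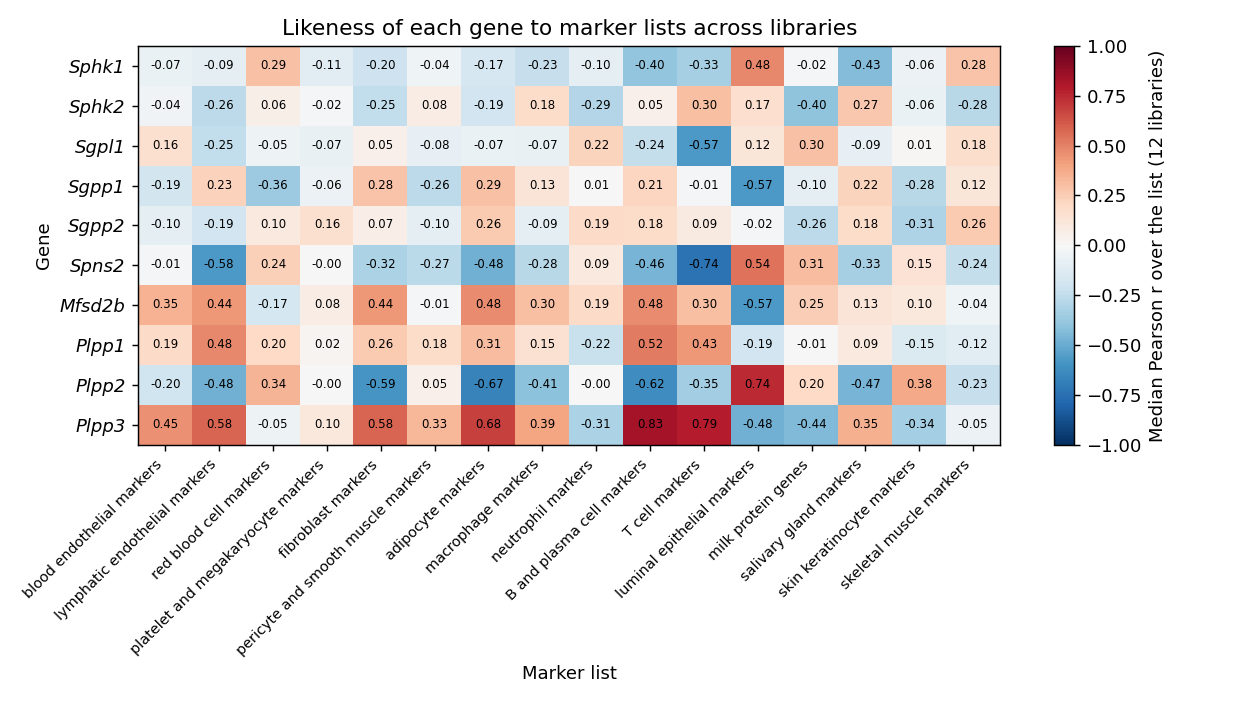
Median Pearson r of log2 CPM over 12 libraries between each of the 10 genes and the genes of each marker list (colour scale from -1 to 1). Plpp2 reads 0.74 with luminal epithelial markers, and Plpp3 reads 0.83 with B and plasma cell markers.

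Among 13002 genes with a standard symbol and a mean log2 CPM of 1 or more (13003 for the weakly expressed Sgpp2), the patterns most like those of the 10 genes were these, by Pearson r over 12 libraries. Sphk1 was most like Pdzd4 (0.94), Stn1 and Cacng4, and Sphk2 most like Copz2 (0.96), Pdk2 and Ly6g6d. Sgpl1 was most like Rbm12 (0.95), Ipo9 and Zfp518b, Sgpp1 most like Trip4 (0.94), Crot and Rcbtb2, and Sgpp2 most like Igf1r (0.84) and Ccdc122. Among the phosphatases of the cell surface, Plpp1 was most like Ptn (0.81), Lhfp and Cdh2, Plpp2 most like Gatad1 (0.98), Pkp3 and Niban2, and Plpp3 most like Fbln7 (0.96), H2-DMb2 and Itgb7. Spns2 was most like Dhx8 (0.91), Tnfsf13os and Ppp1r10, and Mfsd2b most like Ino80d (0.98), Dusp11 and Rbmx. Such values are the highest of many candidates over few libraries that share depth and composition, and they are given as a description.

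The spread of the 10 genes between libraries of a genotype was mostly below the median of all genes tested. Their biological coefficient of variation, edgeR's estimate of the spread beyond counting error, had a median of 0.322 against 0.478 over all genes tested, and it was below that median for 9 of the 10 genes. Mfsd2b at 0.552 was the exception, and Sgpl1 was lowest at 0.242. In mean FPKM, all but Mfsd2b and Sgpp2 lay above at least 68.1% of the genes tested, so abundance differs in that comparison. Set against edgeR's trend for genes of like abundance, 8 of the 10 were below it, Mfsd2b among them (trend 0.578). Sphk2 at 0.345 was close to it (trend 0.347). Sphk1 at 0.462 (trend 0.377) and Plpp2 at 0.392 (trend 0.363) were above it. The share of all genes below the trend was not worked out.

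The neighbouring steps of the pathway gave no calls either. A total of 8 lists with 67 genes, 66 of them tested, covered the S1P receptors, S1P carriers and the step after the lyase, other proposed exporters, other lipid phosphate phosphatases, the lysophosphatidic acid axis, ceramidases, ceramide synthesis, and sphingomyelin and glycosphingolipid turnover. In S1pr1_KO against WT, 34 had a higher and 32 a lower fitted level, 0 were called by edgeR, and 9 had an unadjusted p under 0.05 (background 15.5%). In C3_KO against WT the split was 37 and 29, with 0 called and 3 at an unadjusted p under 0.05 (background 6.23%). Between the knockouts it was 25 and 41, with 0 called and 3 at an unadjusted p under 0.05 (background 3.40%).

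The S1P receptors other than S1pr1 include S1pr5 and S1pr4, the latter found mainly on blood cells of the immune system. The log2 fold changes of S1pr4 and S1pr5 in S1pr1_KO against WT were 1.51 (SE 0.62) and 1.94 (SE 0.81), with edgeR adjusted p of 0.286 and 0.292. S1pr2 and S1pr3 had 0.08 (SE 0.30) and -0.05 (SE 0.35). T cell markers summed to 71.3, 29.2, 19.5 and 14.5 CPM in S1pr1_KO replicates 1 to 4, where the WT libraries held 10.1 to 24.3 CPM, and their part in the receptor values was not tested. Enpp2, whose product autotaxin makes lysophosphatidic acid, a substrate of the lipid phosphate phosphatases, had 2.11 (SE 0.74, edgeR adjusted p = 0.244). The ceramidase genes Asah2 and Acer2 had 0.99 (SE 0.38, edgeR adjusted p = 0.265) and -0.60 (SE 0.26, edgeR adjusted p = 0.294). Abca1 and Spns3, of the other proposed exporters and relatives, had 0.81 (SE 0.35, edgeR adjusted p = 0.295) and -0.78 (SE 0.34, edgeR adjusted p = 0.302). Ormdl2, of a family that restrains serine palmitoyltransferase at the start of ceramide synthesis, had -0.53 (SE 0.17, edgeR adjusted p = 0.241). In C3_KO against WT, the 3 genes of smallest p were the ceramidase gene Acer1 at 2.90 (SE 1.23), Plppr5 at -3.03 (SE 1.30) and Spns3 at -0.76 (SE 0.34), each with an edgeR adjusted p of 0.765. Between the knockouts Enpp2 had 2.41 (SE 0.74, edgeR adjusted p = 1.00).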

How the data were processed

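RNA of 12 tumours, 4 for each genotype, was sequenced as total RNA by a company, per the labels' protocols. The authors deposited raw counts per gene and FPKM for 56860 genes. The submitters' processing notes name StringTie and the build GRCm39 (mm39), with no version. The aligner, counting program, strand handling and treatment of reads that match several places were not given in the sources used here. All 682320 deposited FPKM values equalled the count per kilobase of length and 1e6 counts of the column within a relative tolerance of 0.001. No sample column was left unused (0).

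Counts were tested with edgeR 4.0.16 in R 4.3.3: its filter on low counts left 30660 genes, libraries were scaled by TMM, and a robust quasi-likelihood F-test used 1 mean for each genotype over the 12 libraries (9 residual degrees of freedom, common biological coefficient of variation 0.564). Benjamini-Hochberg adjustment ran over all genes tested, with calls at 0.05. The fit was tested on simulated data. Likeness used Pearson r of log2 CPM with a prior count of 2. All 10 genes were named. For each, the 3 most alike genes with a standard symbol and a mean log2 CPM of 1 or more were named (1 of those of Sgpp2 is not reported here), and of other lists genes called or, where none was, up to 2 of the smallest p, with the remaining S1P receptors added after their values were seen. Alternatives were DESeq2 1.42.0 with its own size factors, limma 3.58.1 (voom with quality weights, and log2(FPKM + 1)), other filters on low counts, fits of 2 genotypes, libraries left out one at a time, and 3 libraries left out for high milk or salivary gene sums. The genes and all lists were chosen with earlier results of these data known. Replicates were numbered in accession order. GENCODE vM21, of an older build, served only for names, exon overlap and lengths, which equalled the deposited lengths for 9 of the 10 genes and differed by 1 base for Sphk1.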

Additional observations from a re-analysis of the deposited data

Results flagged for a closer look

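Within genotypes, the gap between an extreme library and its nearest neighbour was compared with the range of the 4 libraries for the 10 genes, in 30 groups. It exceeded Dixon's 95% critical value for 4 samples in 3 groups. Chance gives about 1 in 20 groups where values follow a normal distribution, which was not checked for these CPM values. The 30 groups share libraries and are not independent. Sphk1 in C3_KO had its highest library at 41.5 CPM (replicate 2), with the others at 10.2 to 15.3 CPM. Sgpl1 in WT had its highest library at 68.3 CPM (replicate 1), with the others at 56.9 to 57.8 CPM. Plpp2 in S1pr1_KO had its highest library at 289 CPM (replicate 3), with the others at 92.1 to 101 CPM.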

How the results depend on the processing

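No paired analysis was possible because the labels give no number that groups share, and replicates were numbered in accession order. The count of the 10 genes called stayed at 0 under every alternative run, except in S1pr1_KO against WT with limma-voom, where it was 2 (Plpp2 and Mfsd2b). Over all genes, C3_KO against WT had 0 calls in edgeR, 82 with DESeq2, 5 with limma-voom, 1 with limma on log2(FPKM + 1), and 0 to 8 with single libraries left out. S1pr1_KO against WT had 0 in edgeR, 10 with no filter on low counts, 23 with a filter of 1 CPM in 4 libraries, 930 with DESeq2, 7828 with limma-voom, 33 with limma on log2(FPKM + 1), 68 with those 2 genotypes only, and 0 to 1330 with single libraries left out, the highest without S1pr1_KO replicate 3. S1pr1_KO against C3_KO had 0 in edgeR, 106 with DESeq2 and 0 to 3 with single libraries left out. The cause of these differences was not tested. In the simulated counts, drawn for each gene independently, DESeq2 made 56 to 68 false calls per comparison and edgeR 2 to 4. Those numbers do not tell how many calls in the deposited data are false. Sgpl1 in WT was at 9.77 in TMM-scaled CPM per kilobase, beside 9.11 in FPKM.

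Of 600 values of log2 fold change under alternatives, 49 changed sign, 31 of 360 with a library left out and 18 of 240 otherwise. They belonged to 19 of 30 results, all with a main value of at most 0.56 in size. With limma-voom, Sphk2 was at -0.27 and Plpp1 at 0.10 in S1pr1_KO against WT, and Sphk2 at -0.03 and Sgpl1 at 0.15 between the knockouts. With limma on log2(FPKM + 1), Sgpp2 was at 0.01, Spns2 at 0.07 and Plpp1 at 0.06 in S1pr1_KO against WT, and Sgpl1 at 0.03 between the knockouts. With a filter of 1 CPM, Plpp1 was at 0.01 in S1pr1_KO against WT, and with the 2 knockouts only, Sgpl1 was at 0.0005. With the 3 libraries of high milk or salivary gene sums dropped, C3_KO against WT gave Sphk2 at 0.02 and Spns2 at -0.01, S1pr1_KO against WT gave Spns2 at 0.01 and Plpp1 at 0.05, and the knockouts gave Sgpl1 at 0.03, Sgpp1 at -0.19, Spns2 at 0.02 and Plpp2 at 0.13. With single libraries left out, C3_KO against WT ran from -0.48 to 0.01 for Sgpp2, -0.08 to 0.19 for Spns2, -0.12 to 0.12 for Plpp1 and -0.43 to 0.0002 for Plpp2. S1pr1_KO against WT ran from -0.11 to 0.29 for Sphk2, -0.01 to 0.48 for Sgpp1, -0.30 to 0.15 for Sgpp2, -0.22 to 0.04 for Spns2 and -0.23 to 0.06 for Plpp1. Between the knockouts it ran from -0.78 to 0.04 for Sphk1, -0.16 to 0.07 for Sgpl1, -0.17 to 0.28 for Sgpp1, -0.06 to 0.37 for Sgpp2, -0.21 to 0.55 for Mfsd2b and -0.24 to 0.05 for Plpp1. Sgpp2 and Mfsd2b rest on the fewest counts, and the spread between libraries limits all 10 genes.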
